A study of Mus musculus with 4 samples.

Results

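The replication-dependent histone genes were examined in EPH-4 mouse mammary epithelial cells depleted of the glucocorticoid receptor (GR). The genes were taken by name. All non-control probes of the array whose gene name began with Hist, a cluster number and h were included, which gave 43 probes for 35 gene names among 41174 probes. RNA had been prepared from EV-50, a line carrying the empty H1-2 vector, and from shGR-19, a line carrying an shRNA vector against GR. Both were stable clones selected with puromycin (2 µg/mL) and grown without glucocorticoid, so that GR was unliganded in each, and each line was a single clone. Each line was measured on 2 Agilent one-colour arrays with 300 ng RNA labelled for each, and all 4 arrays lay on 1 slide. The comparison was made to ask which transcripts depend on GR in the absence of its hormone. As each line was a single clone, an effect of GR depletion and a difference between clones cannot be told apart.

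Histones H2A, H2B, H3 and H4 form the core around which DNA is wrapped, and H1 binds the DNA between cores. The replication-dependent genes lie in clusters, contain no introns, and are transcribed in S phase, when new DNA has to be packaged. Their mRNAs mostly end in a conserved stem-loop, bound by SLBP, instead of a poly(A) tail, although a few members, Hist2h2be and Hist1h1c among them, are known to be made also as polyadenylated transcripts. The labelling used here starts from poly(A), and how far the signals come from mRNAs that end in the stem-loop was not tested. The name rule also took in genes known from testis (Hist1h1t, Hist1h2aa and Hist1h2ba) and pseudogenes (Hist3h2bb-ps, and Hist1h2al, which RefSeq now lists as H2af-ps2).

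The probes were 60 bases long and differed in which part of a histone transcript they met. Some of the probes are shown here, 5′ to 3′, with the mm9 positions of the array's annotation. For Hist1h3a, an H3 gene, the final 30 bases of the probe (chr13:23853756-23853815, minus strand) held a perfect hairpin, with a stem of 6 bases and a loop of 4, which is marked in capitals. Those 16 letters stood whole in 1 probe of the 41174. The probe for the H2A gene Hist1h2ab (chr13:23843392-23843451, plus strand) ended within the same letters, and the first 30 bases of that for Hist1h2ae (chr13:23662489-23662548, minus strand), also H2A, began within them.
Hist1h3a, bases 31 to 60: aattaaccaaaGGCTCTTTTCAGAGCCaca
Hist1h2ab, bases 31 to 60: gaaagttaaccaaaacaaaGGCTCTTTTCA
Hist1h2ae, bases 1 to 30: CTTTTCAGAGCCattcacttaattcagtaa

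The probe for Hist1h1a, an H1 gene, lay at chr13:23855888-23855947 on the plus strand, and the brighter probe for Hist3h2a, an H2A gene, at chr11:58768387-58768446 on the plus strand. Both are shown because their adjusted p in the value table was below 0.01, as was that of Hist3h2bb-ps, whose probe is not shown.
Hist1h1a: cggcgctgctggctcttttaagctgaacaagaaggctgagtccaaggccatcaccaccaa
Hist3h2a: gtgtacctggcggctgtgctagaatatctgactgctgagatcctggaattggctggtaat

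Many histone genes of a class are nearly identical in sequence, and the probes shared it. The H2B probes for Hist1h2bk (chr13:22127928-22127987, plus strand) and Hist1h2bm (chr13:21814139-21814198, plus strand) differed at 2 of 60 bases, in capitals.
Hist1h2bk: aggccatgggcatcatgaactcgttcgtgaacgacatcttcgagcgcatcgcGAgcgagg
Hist1h2bm: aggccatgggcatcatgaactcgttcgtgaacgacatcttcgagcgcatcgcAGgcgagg

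The H4 probes for Hist1h4d (chr13:23673665-23673724, plus strand) and Hist1h4f (chr13:23643249-23643308, minus strand) shared a run of 50 bases, in capitals.
Hist1h4d: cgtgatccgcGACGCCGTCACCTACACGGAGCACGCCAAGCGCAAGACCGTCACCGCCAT
Hist1h4f: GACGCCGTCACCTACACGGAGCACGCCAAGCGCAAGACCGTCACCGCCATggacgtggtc

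The H3 probes for Hist1h3d (chr13:23667979-23668038, plus strand) and Hist2h3c1 (chr3:96051157-96051216, plus strand) shared 17 bases, in capitals, and are shown because their table differences between the lines were close to 0.
Hist1h3d: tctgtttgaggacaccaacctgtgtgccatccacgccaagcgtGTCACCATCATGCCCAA
Hist2h3c1: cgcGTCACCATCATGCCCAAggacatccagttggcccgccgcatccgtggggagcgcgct

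In all, 15 of the 43 probes listed more than 1 RefSeq transcript, and up to 4. There were 13 pairs of probes that shared a run of at least 25 bases, which involved 14 probes. The values of such probes cannot be assigned to a single gene and are not independent of each other. By the array's coordinates, 29 probes lay on chromosome 13, in the Hist1 cluster apart from that for Hist1h2al, 8 on chromosome 3 (Hist2), 4 on chromosome 11 (Hist3) and 1 on chromosome 6 (Hist4h4), and that for Hist1h2bp was unmapped. The probe for Hist1h2al lay 27268835 bases from the nearest other histone probe of chromosome 13 and listed no RefSeq transcript.

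Of the 43 probes, 35 were well above background on all 4 arrays, 5 on none and 3 on some. A probe was kept where it met that criterion on each array of 1 line or of both, which left 37 histone probes for 31 gene names and 24439 probes in all. The 6 histone probes not kept were those for Hist1h1t, Hist1h2ac, Hist1h2ae and Hist1h2be, and 1 probe each for Hist1h1d and Hist2h2aa1. Only the probes for Hist3h2ba and 1 of Hist2h2aa1 were kept through shGR-19 alone. By class, 5 kept probes were for H1, 14 for H2A, 9 for H2B, 3 for H3 and 6 for H4.

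The deposited files hold the same samples in 2 forms that do not behave alike, and the main histone results are therefore given from both. In the scanner files a level is log2 of the background-subtracted signal over that array's 75th percentile. In the authors' value table a level is log2 and centred on the median of the probe over the 4 arrays, so that it gives differences between arrays and no level. In the scanner files the arrays of a line differed more (SD of the log2 difference over the kept probes, 0.69 for EV-50 and 0.73 for shGR-19) than those of the 2 lines with the same number (0.38 for replicate 1 and 0.57 for replicate 2). In the value table the arrays of a line differed less (0.31 and 0.32) than the lines did (0.61 and 0.62). Over the 24436 kept probes with a value on every array, the table's difference between the lines correlated with that of the scanner arrays labelled replicate 2 at 0.84 and with that of the arrays labelled replicate 1 at 0.04. The source of the disagreement was not tested. Whether each scanner file holds the sample it is labelled with was not tested either, and every scanner value is given as labelled. As the labels do not say that the arrays of a line came from separate cultures, the p-values measure only the spread between arrays.

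Nr3c1, which encodes GR, had scanner levels of 1.81 and 1.92 on the arrays labelled EV-50 replicates 1 and 2. In shGR-19 they were 1.46 on the array labelled replicate 1 and -0.03 on that labelled replicate 2. The shGR-19 levels were the lower ones, but that of replicate 1 stood close to EV-50. In the value table Nr3c1 was 3.83-fold lower in shGR-19 (log2 difference -1.94, SE 0.05, adjusted p 0.0022 by limma), and in the scanner files the difference of -1.15 (SE 0.55) had an adjusted p of 1.0.

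In the value table most histone probes were lower in GR-depleted cells. Of the 37 kept probes 28 were lower and 9 higher, beside 49.0% of all kept probes that were lower. The median difference was -0.23 on the log2 scale, against 0.01 over all kept probes. Most differences were small. More than a 2-fold difference with an adjusted p below 0.01 was found for 2 histone probes, both lower, beside a background of 4.26% of all kept probes (2.39% lower and 1.87% higher). These were Hist1h3a and Hist1h1a. With the fold limit dropped, 5 histone probes passed the adjusted p, all lower. Of all kept probes 11.6% passed it in either direction, and 6.04% were lower and passed. Past 2-fold, the share of histone probes called in either direction was close to that of the array as a whole. The counts of 2 and 5 probes are too small for a difference in share to be read from them. The arrays of the lines did not overlap for 26 probes lower and 6 higher in shGR-19, beside 35.3% and 36.6% of all kept probes. Both of the calls past 2-fold were lost when any 1 array was left out, as were those of all other probes. The differences themselves then ranged from -1.501 to -1.349 for Hist1h3a and from -1.31 to -1.13 for Hist1h1a.

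**Figure D1:**
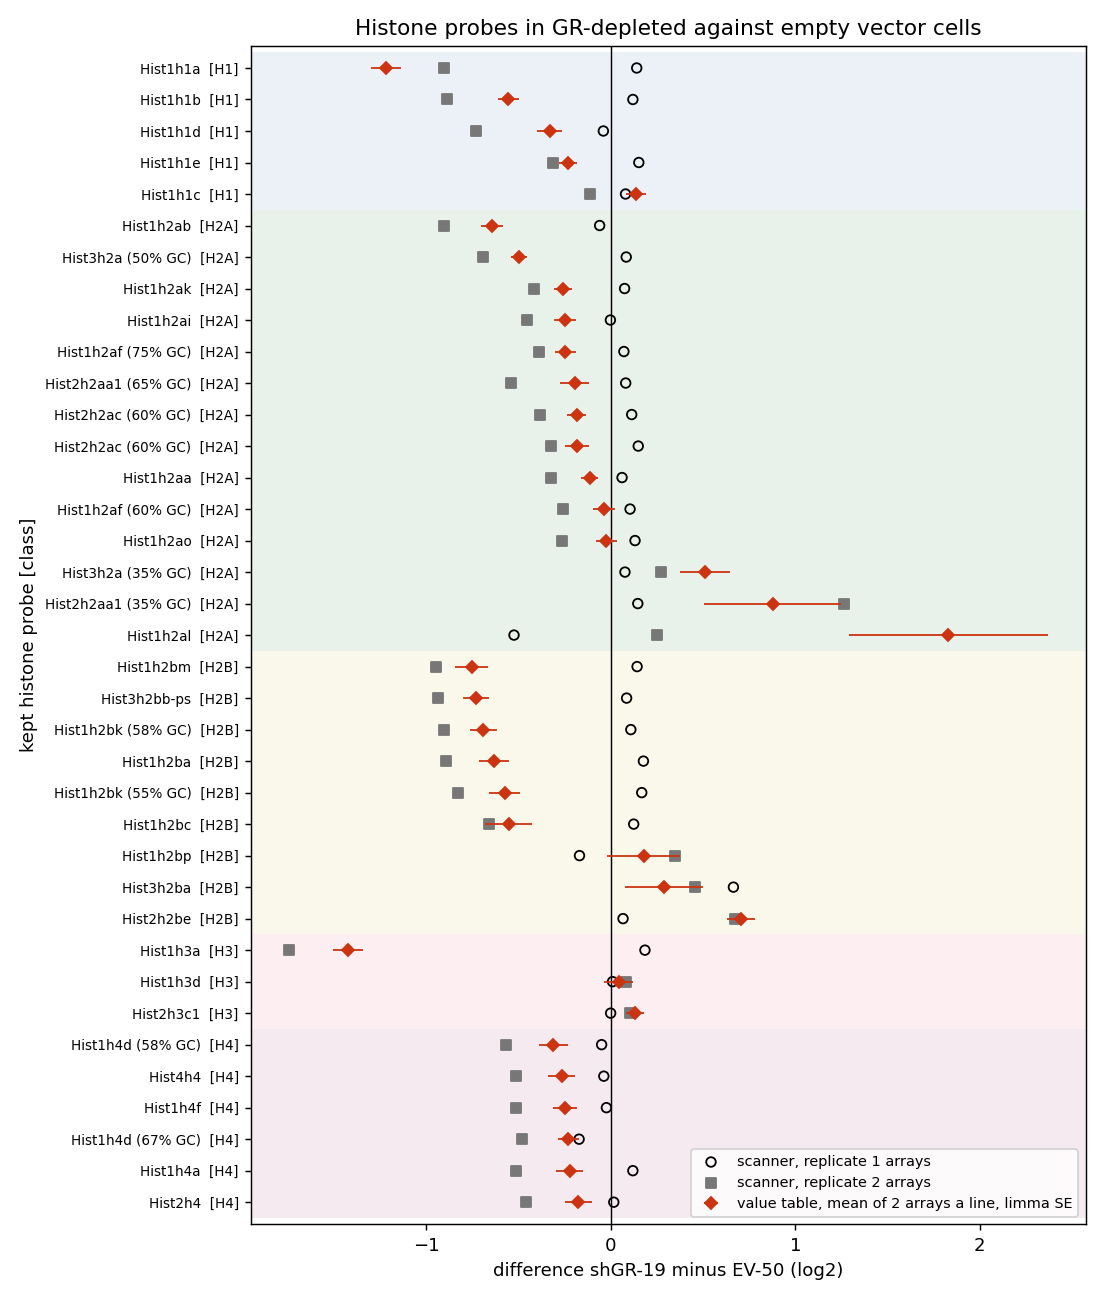
Difference between shGR-19 and EV-50 (x axis, log2) for each of the 37 kept histone probes (y axis, grouped and shaded by class): open circles, scanner arrays labelled replicate 1; squares, scanner arrays labelled replicate 2; diamonds, value table with the standard error from limma. Squares and diamonds lie left of 0 for most probes, with medians of -0.46 and -0.23, whereas circles lie near 0, with a median of 0.08.

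In the scanner files no histone probe was called, and none was called among all 24439 probes (0.0%). At an unadjusted p below 0.05 limma found 0 histone probes, beside 0.855% of all probes. The median difference was -0.22 over the histone probes and 0.02 over all kept probes. It hid unequal pairs. The arrays labelled replicate 1 gave a median histone difference of 0.08, with 10 of 37 probes lower in shGR-19 (40.4% of all probes). Those labelled replicate 2 gave one of -0.46, with 29 of 37 lower (48.1% of all probes). A more than 2-fold decrease between the replicate 2 arrays was seen for 1 histone probe, that of Hist1h3a, beside 3.16% of all probes, and a more than 2-fold increase for 1, a dim probe of Hist2h2aa1, beside 2.37%. The arrays of the lines did not overlap for 0 probes lower in shGR-19 (6.14% of all probes) and for 2 higher (11.8%), which were the probes kept through shGR-19 alone.

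The same genes also differed within a line. In EV-50, 36 of 37 histone probes were higher on the array labelled replicate 1 than on that labelled replicate 2, by a median of 0.50, and in shGR-19 33 of 37 were, by a median of 0.95. Over all kept probes the medians were 0.03 and 0.06, and 47.2% and 44.7% were lower on the array labelled replicate 1. Probes in which at least 50% of bases are G or C shifted more, by medians of 0.12 in EV-50 and 0.08 in shGR-19 over all such probes and of 0.56 and 1.098 over the 26 histone probes among them. The median scanner difference between the lines turned to 0.28 when shGR-19 replicate 2 was left out and to 0.04 when EV-50 replicate 1 was. It was -0.46 without EV-50 replicate 2 and -0.75 without shGR-19 replicate 1.

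**Figure D2:**
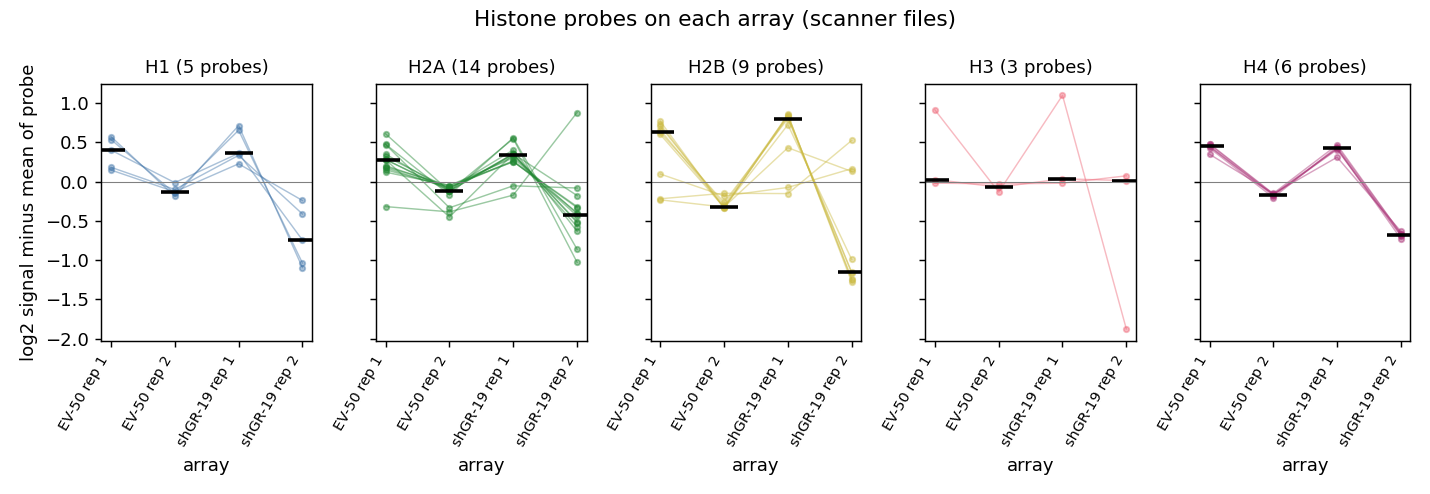
Scanner level of each kept histone probe on each array (x axis) after its mean over the 4 arrays was subtracted (y axis, log2), in a panel per class; thin lines join the values of a probe and black bars are medians. Apart from Hist1h3d and Hist2h3c1 in H3 and some probes of H2A and H2B, the levels were highest on the 2 arrays labelled replicate 1 and lowest on the array labelled shGR-19 replicate 2.

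Among linker histones, the value table had 4 of 5 kept H1 probes lower in GR-depleted cells (median -0.33). Hist1h1a had table values of 0.57 and 0.57 in EV-50 and of -0.57 and -0.74 in shGR-19. It was 2.33-fold lower in shGR-19 (log2 difference -1.22, SE 0.08, adjusted p 0.0051). Its scanner levels were -0.56 and -1.32 in EV-50 and -0.42 and -2.23 in shGR-19, so that the lines overlapped. Of the shGR-19 arrays only that labelled replicate 2 stood below both EV-50 arrays, and in each line the array labelled replicate 2 was the lower. The scanner difference of -0.38 (SE 0.69) had an adjusted p of 1.0.

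Hist1h1b, the H1 gene with the brightest probe, had table values of 0.33 and 0.25 in EV-50 and of -0.28 and -0.25 in shGR-19. Its difference of -0.56 (SE 0.06) had an adjusted p of 0.010, just above the threshold. Hist1h1e had a difference of -0.23 (SE 0.05, adjusted p 0.037), and Hist1h1d one of -0.33 (SE 0.07, adjusted p 0.038) at its brighter probe. The other Hist1h1d probe, 1751 bases away, was well above background on no array. Hist1h1c was the exception, with table values of -0.06 and -0.04 in EV-50 and of 0.04 and 0.13 in shGR-19 (difference 0.14, SE 0.06, adjusted p 0.15). Between the replicate 2 scanner arrays all 5 H1 probes were lower in shGR-19, by 0.11 (Hist1h1c) to 0.91 (Hist1h1a).

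Among core histones H2A had the most probes. Of 14 kept probes 11 had a lower table value in shGR-19, and the differences ran from -0.64 to 1.83, the latter at the dim probe for Hist1h2al. Hist1h2ab, whose probe ends in the stem-loop letters shown above, had table values of 0.29 and 0.34 in EV-50 and of -0.38 and -0.29 in shGR-19. It was 1.56-fold lower (difference -0.64, SE 0.06, adjusted p 0.0086), and its scanner levels were 2.23 and 1.49 in EV-50 and 2.16 and 0.59 in shGR-19. The scanner levels of the lines overlapped.

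Hist3h2a had kept probes that went opposite ways. The brighter, shown above, had table values of 0.26 and 0.25 in EV-50 and of -0.25 and -0.25 in shGR-19 (difference -0.50, SE 0.05, adjusted p 0.0083). The dimmer, which started 567 bases downstream, had values of -0.25 and -0.15 in EV-50 and of 0.47 and 0.15 in shGR-19 (difference 0.51, SE 0.14, adjusted p 0.061). Their replicate 2 scanner differences were -0.69 and 0.27. Of the bases of the brighter probe 50% were G or C, and of those of the dimmer 35%.

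Hist2h2aa1 had a difference of -0.20 (SE 0.08, adjusted p 0.14) at the brighter kept probe. The dim one, 4514 bases away, was kept through shGR-19 alone, and its difference of 0.88 (SE 0.37, adjusted p 0.16) is not read as a direction. Hist1h2al had the largest table difference of any histone probe, 1.83 (SE 0.54, adjusted p 0.076), with values of -0.41 and -1.38 in EV-50 and of 1.45 and 0.41 in shGR-19. Its scanner levels were -4.24 and -5.05 in EV-50 and -4.77 and -4.80 in shGR-19. The scanner levels showed no such order, and the table difference was not called.

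The H2A probes with the brightest signal differed little. Hist1h2aa had scanner levels of 9.13 and 8.85 in EV-50 and 9.19 and 8.53 in shGR-19, and a table difference of -0.12 (SE 0.05, adjusted p 0.14). Its probe shared 44 bases in a row with that of Hist1h2af, whose table difference was -0.04 (SE 0.06, adjusted p 0.66). A second Hist1h2af probe, which listed 4 transcripts, had a difference of -0.25 (SE 0.06, adjusted p 0.047). Hist1h2ai, Hist1h2ak, Hist1h2ao and both probes of Hist2h2ac had differences between -0.26 and -0.02.

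Of the 9 kept H2B probes, 6 had lower and 3 higher table values in shGR-19, with a median of -0.58. The lower ones lay close together. Hist1h2bm had table values of 0.31 and 0.37 in EV-50 and of -0.31 and -0.51 in shGR-19, and the largest decrease of the class (difference -0.76, SE 0.09, adjusted p 0.013). Hist1h2bk, with the nearly identical probe, had values of 0.31 and 0.31 in EV-50 and of -0.31 and -0.46 in shGR-19 (difference -0.69, SE 0.07, adjusted p 0.010). The pseudogene Hist3h2bb-ps, whose probe shared 26 bases in a row with both, was the H2B probe that passed the adjusted p (difference -0.73, SE 0.07, adjusted p 0.0088). The second probe of Hist1h2bk, Hist1h2ba and Hist1h2bc had differences between -0.63 and -0.55.

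Hist2h2be went the other way. Its table values were -0.30 and -0.45 in EV-50 and 0.36 and 0.30 in shGR-19, a 1.63-fold higher level in shGR-19 (difference 0.71, SE 0.07, adjusted p 0.010, just above the threshold). Its scanner levels were -0.19 and -0.12 in EV-50 and -0.13 and 0.55 in shGR-19. The array labelled shGR-19 replicate 2 stood highest here, where it was the lowest for most histones. Hist1h2bp and Hist3h2ba had table differences of 0.18 (SE 0.20) and 0.29 (SE 0.21). Hist3h2ba was not well above background on either EV-50 array and was kept through shGR-19 alone, so that its values do not bear on the direction of the class. Its table values were 0.04 and -0.23 in EV-50 and -0.04 and 0.43 in shGR-19, so that the same-numbered arrays went opposite ways. Its scanner level in shGR-19 was at least 1.13-fold higher (adjusted p 1.0), taken against the lowest signal well above background on each EV-50 array or its own where higher. Because the filter kept this probe through shGR-19 alone, that bound is not read as a difference between the lines.

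Of the H3 genes, Hist1h3a showed the largest decrease of all histone probes. Its table values were 0.74 and 0.65 in EV-50 and -0.81 and -0.65 in shGR-19, which is 2.69-fold lower (log2 difference -1.43, SE 0.08, adjusted p 0.0042). On the scanner arrays its levels were -1.66 and -2.71 in EV-50 and -1.47 and -4.45 in shGR-19. Only the array labelled shGR-19 replicate 2 stood below both EV-50 arrays. The scanner difference of -0.78 (SE 1.09) had an adjusted p of 1.0, and the replicate 2 difference alone was -1.74.

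The other H3 probes had differences close to 0. Hist1h3d had scanner levels of 6.11 and 6.01 in EV-50 and 6.12 and 6.10 in shGR-19, with a table difference of 0.04 (SE 0.08, adjusted p 0.70). Hist2h3c1 had scanner levels of 6.75 and 6.74 in EV-50 and 6.75 and 6.84 in shGR-19, with a table difference of 0.13 (SE 0.05, adjusted p 0.13). They listed 4 and 3 transcripts, and the Hist1h3a probe 1. The difference between these probes and that of Hist1h3a was not itself tested.

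The H4 probes moved least apart from each other. All 6 had lower table values in shGR-19, with differences from -0.31 to -0.18, and none was called. Hist1h4d had table values of 0.12 and 0.09 in EV-50 and of -0.09 and -0.16 in shGR-19 at its brighter probe (difference -0.23, SE 0.06, adjusted p 0.052). Hist1h4f had values of 0.11 and 0.09 in EV-50 and of -0.09 and -0.21 in shGR-19 (difference -0.25, SE 0.07, adjusted p 0.061). Hist4h4, which lies apart from the other clusters, had a difference of -0.27 (SE 0.07, adjusted p 0.064). Between the replicate 2 scanner arrays the 6 differences ran from -0.57 to -0.46, and between the replicate 1 arrays from -0.17 to 0.12.

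The probes were also described by their base composition. Of the 26 kept histone probes in which at least 50% of bases were G or C, 24 had lower table values in shGR-19, and the exceptions were Hist1h3d and Hist2h3c1. Of the 11 probes below 50%, 4 were lower, namely Hist1h1e, Hist1h2ab, Hist1h2bc and Hist1h3a, and 7 were higher. Of these 7, the probes for Hist2h2aa1 and Hist3h2ba were kept through shGR-19 alone, and without them 4 of 9 were lower. Over all kept probes the shares lower were 48.1% at or above 50% and 49.3% below it, and the median differences were 0.02 and 0.01. The limit of 50% was set after the values had been seen, and the part of base composition in these differences was not tested.

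**Figure D3:**
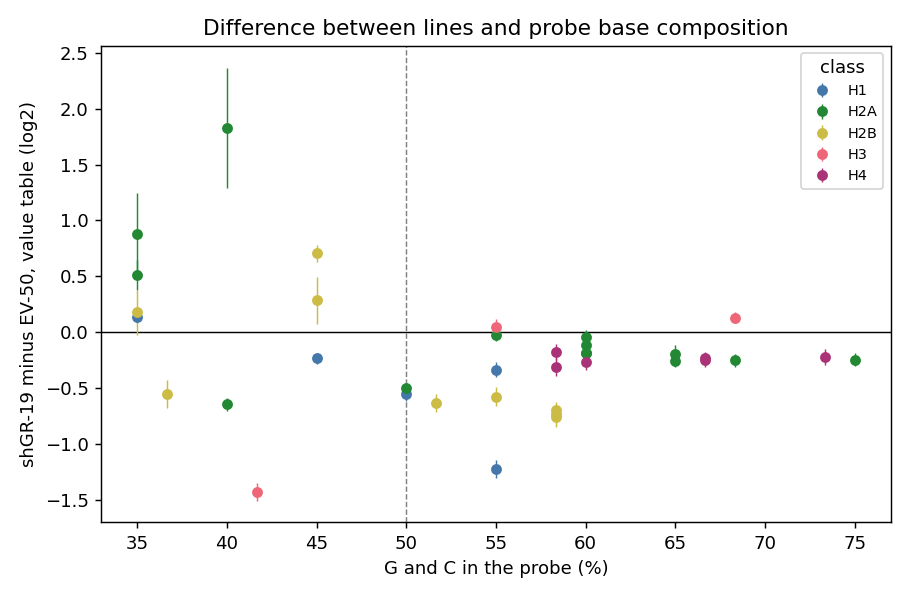
Table difference, shGR-19 minus EV-50 (y axis, log2, with the standard error from limma), against the percentage of G and C in the probe (x axis) for the 37 kept histone probes, coloured by class; the dashed line marks 50%. Of the probes at or right of the dashed line 24 of 26 lie below 0, against 4 of 11 left of it.

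The RefSeq table of promoters (GRCm38.p6, 250 bases before to 50 after each start) held 30 promoters for 29 of the 35 gene names. Sequences were searched on both strands. The CCAAT box (CCAAT) stood in 28 of the 30, against 37.4% of all 32851 promoters, and TATAAA in 19, against 13.6%. The octamer ATTTGCAT, which binds Oct-1 and is known from H2B promoters, stood in 10 of the 30, against 1.74%. These 10 were 6 of 11 for H2A and 4 of 7 for H2B. H2A and H2B genes often lie head to head and share a promoter. The glucocorticoid response palindrome, read as AGAACA and TGTTCT with 3 bases between them, matched none of the 30 and 3 of all 32851 (0.00913%). A palindrome so rare would hardly be met among 30 promoters, so nothing is read from its absence. The core of the ETS site (CCGGAAG), the kind bound by GABP, stood in 1 of the 30, that of Hist1h1e, against 8.86% of all promoters. The 120 bases before the start of the genes with the largest decrease in H1, H2A and H2B are shown, with these motifs in capitals, for Hist1h1a (now H1f1, chr13:23763548-23763667), Hist1h2ab (now H2ac4, chr13:23750968-23751087) and Hist1h2bm (now H2bc14, chr13:21721924-21722043), all on the plus strand of GRCm38.p6.
Hist1h1a: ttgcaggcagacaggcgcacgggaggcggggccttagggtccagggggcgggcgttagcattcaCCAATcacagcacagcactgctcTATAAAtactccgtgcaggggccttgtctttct
Hist1h2ab: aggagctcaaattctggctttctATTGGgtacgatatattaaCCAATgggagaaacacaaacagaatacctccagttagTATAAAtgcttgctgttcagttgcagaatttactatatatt
Hist1h2bm: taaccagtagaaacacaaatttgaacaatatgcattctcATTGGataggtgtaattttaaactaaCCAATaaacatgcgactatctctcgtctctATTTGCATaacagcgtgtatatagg

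Genes used together with histones were read from the brightest kept probe of each. They are given from the value table, and in the scanner files every one of them had an adjusted p of 1.0. Of 29 S phase genes, 26 had lower and 3 higher table values in shGR-19, with a median difference of -0.43. Of these 10 passed the adjusted p, all lower (6.04% of all kept probes did so), and none passed 2-fold. The largest differences were those of the replication licensing genes Mcm2 (-0.93, SE 0.05, adjusted p 0.0039), Cdc6 (-0.85, SE 0.05, adjusted p 0.0041) and Mcm5 (-0.79, SE 0.05, adjusted p 0.0047). The replicate 2 scanner arrays gave the list a median of -0.42 and the replicate 1 arrays one of 0.05. From the array labelled replicate 2 to that labelled replicate 1 the median of the list differed by -0.21 in EV-50, where that of the histone probes differed by 0.50, and by 0.34 in shGR-19, where that of the histone probes differed by 0.95. Where the histone values were lower, fewer cells in S phase and less histone mRNA per cell cannot be told apart in these samples. Nor can a smaller polyadenylated share of histone mRNA be told from either, as the labelling starts from poly(A).

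Of 25 genes for histone transcription and mRNA 3′ processing or decay, 18 were lower, with a median of -0.19, and 1 passed the adjusted p, beside 6.04% of all kept probes that were lower and passed. This was Npat, the coactivator of histone gene transcription, with table values of 0.24 and 0.25 in EV-50 and -0.24 and -0.31 in shGR-19 (difference -0.52, SE 0.05, adjusted p 0.0094). Slbp, whose protein binds the stem-loop, had values of 0.22 and 0.15 in EV-50 and -0.15 and -0.17 in shGR-19 (difference -0.34, SE 0.05, adjusted p 0.021). Casp8ap2, whose protein FLASH acts in histone mRNA 3′ processing, had a difference of -0.37 (SE 0.06, adjusted p 0.023). The decapping enzyme gene Dcp2 (-0.56, SE 0.06, adjusted p 0.011) and the exonuclease gene Xrn1 (-0.51, SE 0.13, adjusted p 0.055) had the other largest differences of the list. The list had a median of -0.15 between the replicate 2 scanner arrays and of 0.03, with 5 of 25 lower, between the replicate 1 arrays.

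The variant histones are encoded outside the clusters, most of them by polyadenylated mRNAs that are not limited to S phase. Of 15 kept genes 5 were lower and 10 higher, with a median of 0.12, and 1 passed the adjusted p in each direction, beside 11.6% of all kept probes in either. Of the 15, 14 were well above background on all 4 arrays. The exception, Hils1, was kept through shGR-19 alone. It was among the 10 higher (0.11, SE 0.05, adjusted p 0.19), and its value is not read as a direction. The difference from the histone probes was not tested. H2afx, which encodes the variant phosphorylated at DNA breaks, was higher in shGR-19 (0.75, SE 0.05, adjusted p 0.0053). H1f0, the H1 of quiescent cells, was lower at its brightest probe (-0.46, SE 0.05, adjusted p 0.0095), while its other probes had differences of -0.02 and 0.09. H1fnt, known from testis, had a difference of 0.60 (SE 0.24, adjusted p 0.13). Of 23 histone chaperones 11 were lower and 12 higher, with a median of 0.00, and 2 lower and 1 higher passed the adjusted p, again beside 11.6% of all kept probes. Mcm2, which also binds histones and was counted among the S phase genes, and Chaf1a, a subunit of the chromatin assembly factor CAF-1 (-0.51, SE 0.05, adjusted p 0.0095), were lower, and Ubn1, a partner of the H3.3 chaperone HIRA, was higher (0.49, SE 0.05, adjusted p 0.0088). The scanner medians were 0.14 for the variants and -0.03 for the chaperones between the replicate 2 arrays, and 0.09 and 0.05 between the replicate 1 arrays.

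**Figure D4:**
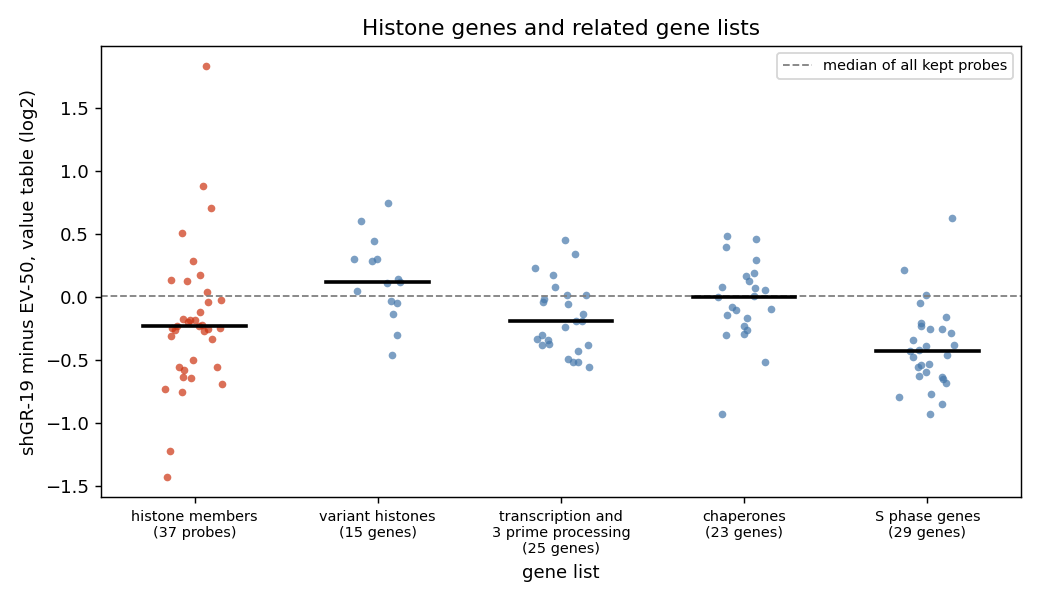
Table difference, shGR-19 minus EV-50 (y axis, log2), for the 37 kept histone probes and for the brightest kept probe of each gene in 4 related lists (x axis); each point is a probe, black bars are medians and the dashed line is the median of all kept probes (0.01). The S phase genes have the lowest median (-0.43), the histone probes one of -0.23, and the variant histones one of 0.12.

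The labelled cell type was borne out by 10 kept epithelial markers of 12 listed, all 10 well above background on all 4 arrays, and 0 of them passed the adjusted p. Of 10 mesenchymal markers 4 were kept (Vim, Col1a2, Pdgfra and Pdgfrb). All 4 were called higher in shGR-19 from the table (differences from 1.16 to 3.27), beside 1.87% of all kept probes. Pdgfra, which had the lowest of these differences, was not well above background in EV-50 replicate 1 and was kept through shGR-19 alone. In the scanner files none of the 4 was called. The sum of their scanner signals, relative to the 75th percentile, was 1.92 and 6.46 on the EV-50 arrays and 1.94 and 46.0 on the shGR-19 arrays. Of 8 immune markers 5 were kept, of 4 endothelial 2 and of 3 adipocyte 2, and none was called. With the fold limit dropped, 1 of them passed the adjusted p in the table, beside 11.6% of all kept probes in either direction. This was the immune marker Lyz2, higher in shGR-19 (0.76, SE 0.06, adjusted p 0.0068), with a scanner difference of -0.04 (SE 1.01). The part of these markers in the histone differences was not tested.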

How the data were processed

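RNA of 2 EV-50 and 2 shGR-19 samples was Cy3-labelled and put on Agilent Whole Mouse Genome one-colour arrays. The authors deposited scanner output from Agilent Feature Extraction 10.5.1.1, with a background-subtracted intensity per spot that had not been scaled between arrays, and log2 values from GeneSpring, which had centred every probe on its median over the arrays. All 43 histone probes were in both.

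From the scanner files, control spots and spots marked as outliers were left out, spots of a probe were averaged, and the processed signal was divided by the array's 75th percentile and put on the log2 scale. No spot was saturated. Precision is limited by the number of arrays. The comparison of the lines used lmFit and eBayes of limma 3.58.1 under R 4.3.3 with Benjamini-Hochberg adjustment over all 24439 kept probes, in each source. A probe was called at more than 2-fold and an adjusted p below 0.01. Only the main fit of each source was run on simulated arrays, with noise drawn independently for each array. As same-numbered scanner arrays deviated together, the simulation cannot show how the scanner fit performs on the real arrays. Alternatives for the scanner files were normexp background correction (offset 50), quantile normalization and the 75th percentile over probes well above background on all 4 arrays. Alternatives for both sources were other filters and thresholds, an intensity trend with a robust prior and the replicate number as a block. Results with 1 probe per gene and with each array left out were also taken. The histone genes, lists and tests were chosen with earlier results of these data known. Named were the genes called in either source, the 2 with the brightest probe and the 1 with the largest table difference of each class, Nr3c1, and, in each related list, the 3 with the largest table differences plus Slbp, Npat and Casp8ap2. The other histone genes were named after their values had been seen. Promoter sequences are those of RefSeq, matched by current and older symbols. Protein sequences were not used here.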

Additional observations from a re-analysis of the deposited data

How the results depend on the processing

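With 2 arrays per line, the counts of calls were sensitive to the fit, whereas the median of the histone probes in the value table was not. The value table gave calls for 2 histone probes and for 1042 probes in all. With all probes kept, whether or not above background, these became 0 and 43, and with the replicate number as a block 0 and 0. With any 1 array left out the counts ranged from 0 to 0, for histone probes and for all probes alike. Without a limit on the fold they were 5 and 2828. The other alternatives kept both counts within 1.5 times. The median of the histone probes in the table ranged from -0.28 to -0.19 with 1 array left out, and the value furthest from -0.23 was the -0.28 without shGR-19 replicate 1. In the scanner files 0 histone probes were called under every alternative run, with a range from 0 to 0 for histone probes and all probes when 1 array was left out, and 35 of all probes passed more than 2-fold at an unadjusted p below 0.01. The scanner median ranged from -0.75 to 0.28 with 1 array left out. The scanner differences of Hist1h1a ranged from -1.29 to 0.52 and those of Hist1h3a from -2.27 to 0.71, positive only without shGR-19 replicate 2. With normexp background correction the scanner difference was -0.33 for Hist1h1a, beside -0.38 in the main fit. For Hist1h3a it was -0.33, beside -0.78, so that its size depended on how background was handled. Table differences close to 0 changed sign, from -0.086 to 0.010 for Hist1h2af and from -0.020 to 0.11 for Hist1h3d.

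Arrays with the same replicate number deviated together in the scanner files (correlation of deviations 0.57 over 24439 probes) and hardly in the value table (0.06). With 2 pairs and no label that ties the numbers to a shared culture, the numbers were not taken to pair the samples. Both histone calls of the table were lost under the block (0), with the differences at -1.22 (adjusted p 0.030, Hist1h1a) and -1.43 (adjusted p 0.030, Hist1h3a) as without it, and the scanner files gave 0 calls with and without it.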
